A study of Mus musculus with 16 samples.

Results

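The 10 genes described here are Hif1a, which encodes the oxygen-regulated subunit HIF1A of the hypoxia-inducible factor (HIF), and 9 known targets of that factor, out of 20295 genes in the count table. They were selected on their symbols and on measured values: several of the targets were chosen because their counts were higher with SR-3420 than with vehicle and did not show this rise when triacsin C was present. The comparisons of SR-3420 with vehicle and of triacsin C with and without SR-3420 therefore chose the members, and changes of the members in these comparisons are given as a description with no test. No threshold on a value was set. All 10 members passed the filter on low counts, which kept 12786 genes.

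The samples were brown adipocytes from one line of mouse brown preadipocytes, made immortal with the large T antigen of SV40 and differentiated in culture until day 7. All cells had a first period of 1 h with vehicle or an inhibitor and a second of 3 h with or without SR-3420, a synthetic ligand of ABHD5 that releases this activator to the lipase ATGL and so starts lipolysis without an adrenergic agonist. The 6 groups were vehicle (2 samples), 10 µM SR-3420 (2 samples), 5 µM triacsin C (TC, 3 samples), TC with SR-3420 (TC+SR-3420, 3 samples), 50 µM etomoxir (ETO, 3 samples) and ETO with SR-3420 (ETO+SR-3420, 3 samples), and the dose of SR-3420 is that of the sample labels, while the description of the experiment elsewhere gives another. Triacsin C inhibits the acyl-CoA synthetases that activate fatty acids, and etomoxir inhibits CPT1, which passes activated fatty acids to the mitochondria. RNA-seq reads were counted per gene, and the total of a sample ranged from 9452861 to 25670624, the median being 13602886. Samples are named by group and replicate number; vehicle 1 and SR-3420 2 were not analysed here. The authors describe replicates as independent experiments on the cell line, so p-values measure the spread between such experiments, and the labels do not say which samples shared 1.

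HIF is a pair of an alpha subunit, such as HIF1A or EPAS1, and the constant partner ARNT. In oxygenated cells the prolyl hydroxylases encoded by Egln1 and Egln3 mark the alpha subunit, and the VHL ligase then sends it to degradation; at low oxygen, or when the hydroxylases are otherwise slowed, the subunit persists and the pair binds DNA at the motif ACGTG or GCGTG. Its targets raise glucose uptake and glycolysis, call for blood vessels and restrain mitochondria, and some, Egln3 among them, feed back on the pathway. Brown fat is dense in vessels and consumes much oxygen, and its adipocytes are a known source of VEGFA. HIF1A is controlled mainly at the protein, which was not measured here, as oxygen was not, and Hif1a mRNA is no measure of HIF activity.

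Levels are given as CPM (counts scaled to a common library total) after TMM normalization, and differences as log2 fold changes with ± 1 standard error (SE), while ± after a level is the standard deviation (SD). The samples numbered 3 stood apart for some members: Hif1a, Bnip3, Kdm3a and Apln were each highest in the sample numbered 3 in all 6 groups. For Bnip3 the ETO+SR-3420 sample 3 stood at 156 CPM, while samples 1 and 2 of that group stood at 53.5 and 56.7 CPM. Counts of called genes are also given without the samples numbered 3, a setting chosen after seeing the data.

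The labelled cell type was checked against its markers. All 10 brown adipocyte markers on the list were counted in every sample, and Fabp4 was the most abundant, but Ucp1, the uncoupling protein that defines brown fat, stood at no more than 3.66 CPM, with 5 to 57 counts per sample. The summed level of the 10 markers was 11787 ± 464 CPM (SD, n = 2) in vehicle and 8560.1 ± 143 CPM (SD, n = 2) in SR-3420. It was 13398 ± 374 CPM in TC and 5129 ± 307 CPM in TC+SR-3420 (SD, n = 3 each). In ETO it was 11787 ± 800.4 CPM and in ETO+SR-3420 6217 ± 1652 CPM (SD, n = 3 each). The sum of each SR-3420 group lay below that of its own control with no overlap. Fabp4 and Adipoq carried most of the fall, joined by Plin1 with triacsin C and with etomoxir. With SR-3420 alone Plin1 had a mean of 1480 CPM, against 1517 CPM in vehicle. Single markers went both ways: by group means, 5 of the 10 were higher with SR-3420 alone (Ucp1, Cidea, Ppargc1a, Cox7a1 and Elovl3), 3 of 10 with SR-3420 in triacsin C and 4 of 10 in etomoxir, and Ucp1 was higher in all 3. The 5 preadipocyte markers were all counted in every sample. Thy1 was the most abundant of them over all samples, but Pdgfra stood higher in vehicle and in ETO. Their sum moved the other way, from 133 ± 8.20 CPM in vehicle to 205 ± 17.3 CPM in SR-3420 (SD). It went from 171 ± 21.4 to 262 ± 46.5 CPM with triacsin C and from 130.4 ± 24.1 to 218 ± 45.2 CPM with etomoxir (SD). In bulk RNA, fewer cells of a type and less RNA per cell cannot be told apart, and the part of these marker shifts in the results on the HIF targets was not tested. The 5 endothelial markers were near 0, with a sum of at most 1.71 CPM in any sample and Emcn at 0 to 2 counts. Of the 5 macrophage markers, Cd68 led and Ptprc, Emr1 and Itgam were near 0; the sum was 5.42 ± 2.06 CPM in vehicle, 8.02 ± 2.91 CPM in SR-3420, 17.1 ± 0.823 CPM in TC, 8.50 ± 0.524 CPM in TC+SR-3420, 6.67 ± 1.17 CPM in ETO and 7.34 ± 1.67 CPM in ETO+SR-3420 (SD). Every TC sample lay above all other samples, and Cd68 itself had means of 15.5 CPM in TC and 6.34 CPM in TC+SR-3420. Ankrd37, described below, was also highest in TC and lower in TC+SR-3420, and the part of these markers in its values was not tested.

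Since the members share a transcription factor, their promoters are shown for those on which the results turn. A RefSeq table of promoters on GRCm38.p6, each reaching from 250 bases before to 50 bases after a start, held 12 promoters for 9 of the 10 members: Hif1a, Egln1, Egln3, Apln, Adm, Bnip3 and Ankrd37 with 1 each, Vegfa with 2 and Kdm3a with 3, and none for Ndrg1. Both strands were searched for ACGTG and GCGTG, and for the E-box CACGTG, which holds ACGTG and is also bound by other factors. ACGTG or GCGTG was present in 8 of the 12 member promoters and in 43.8% of the 32851 promoters in the table; ACGTG alone was in 6 of 12 and 19.6%, GCGTG in 6 of 12 and 32.4%, and CACGTG in 2 of 12 (Hif1a and Bnip3) and 7.15%. The 250 bases before the first listed start of 6 members follow, 5′ to 3′ on the strand of the gene. Each ACGTG or GCGTG of either strand is in capitals (CACGT and CACGC on the other strand). The 6 are Ankrd37, Egln3, Apln, Adm, Vegfa and Bnip3. They were picked by values that also chose the members, so nothing is read from differences between their stretches.
Ankrd37: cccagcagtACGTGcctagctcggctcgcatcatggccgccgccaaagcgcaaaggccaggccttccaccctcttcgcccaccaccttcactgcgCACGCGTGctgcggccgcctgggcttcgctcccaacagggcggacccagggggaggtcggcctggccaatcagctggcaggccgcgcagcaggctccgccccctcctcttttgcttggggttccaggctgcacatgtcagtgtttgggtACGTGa
Egln3: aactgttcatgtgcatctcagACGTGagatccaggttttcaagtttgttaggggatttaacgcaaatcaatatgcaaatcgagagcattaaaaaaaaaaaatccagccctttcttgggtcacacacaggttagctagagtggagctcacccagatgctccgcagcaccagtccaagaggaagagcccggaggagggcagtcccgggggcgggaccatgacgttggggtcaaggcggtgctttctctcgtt
Apln: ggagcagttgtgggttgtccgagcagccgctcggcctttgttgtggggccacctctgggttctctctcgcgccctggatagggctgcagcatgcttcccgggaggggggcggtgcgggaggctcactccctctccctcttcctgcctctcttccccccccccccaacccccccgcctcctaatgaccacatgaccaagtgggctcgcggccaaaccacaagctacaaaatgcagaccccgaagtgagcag
Adm: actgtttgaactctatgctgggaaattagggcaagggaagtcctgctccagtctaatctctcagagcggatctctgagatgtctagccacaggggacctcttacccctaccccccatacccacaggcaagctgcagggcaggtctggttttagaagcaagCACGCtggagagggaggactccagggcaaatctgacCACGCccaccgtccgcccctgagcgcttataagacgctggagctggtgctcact
Vegfa: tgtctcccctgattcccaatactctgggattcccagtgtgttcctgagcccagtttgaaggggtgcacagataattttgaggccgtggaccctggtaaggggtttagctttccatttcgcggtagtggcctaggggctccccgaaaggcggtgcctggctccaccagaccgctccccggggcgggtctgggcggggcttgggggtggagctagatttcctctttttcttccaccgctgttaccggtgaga
Bnip3: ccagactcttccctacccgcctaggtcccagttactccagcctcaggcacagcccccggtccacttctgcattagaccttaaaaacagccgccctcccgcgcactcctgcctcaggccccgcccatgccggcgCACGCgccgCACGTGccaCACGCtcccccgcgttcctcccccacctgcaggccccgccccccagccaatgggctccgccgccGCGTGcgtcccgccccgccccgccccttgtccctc

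These stretches lie at chr8:45999851-46000100 (minus strand) for Ankrd37, chr12:54203875-54204124 (minus strand) for Egln3, chrX:48034854-48035103 (minus strand) for Apln, chr7:110627407-110627656 (plus strand) for Adm, chr17:46032378-46032627 (minus strand) for Vegfa and chr7:138909507-138909756 (minus strand) for Bnip3. The Ankrd37 stretch holds 2 ACGTG and 2 GCGTG, the last of them starting 6 bases before the start of the gene, and the 2 GCGTG overlap. That of Bnip3 holds the most, with 2 ACGTG in 1 CACGTG and 3 GCGTG. Egln3 has a single ACGTG at 229 bases before its start, Adm has 2 GCGTG, and no match was found in the stretch of Apln or in that of the first Vegfa start. A match is a run of letters in this window, not a binding site.

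**Figure D1:**
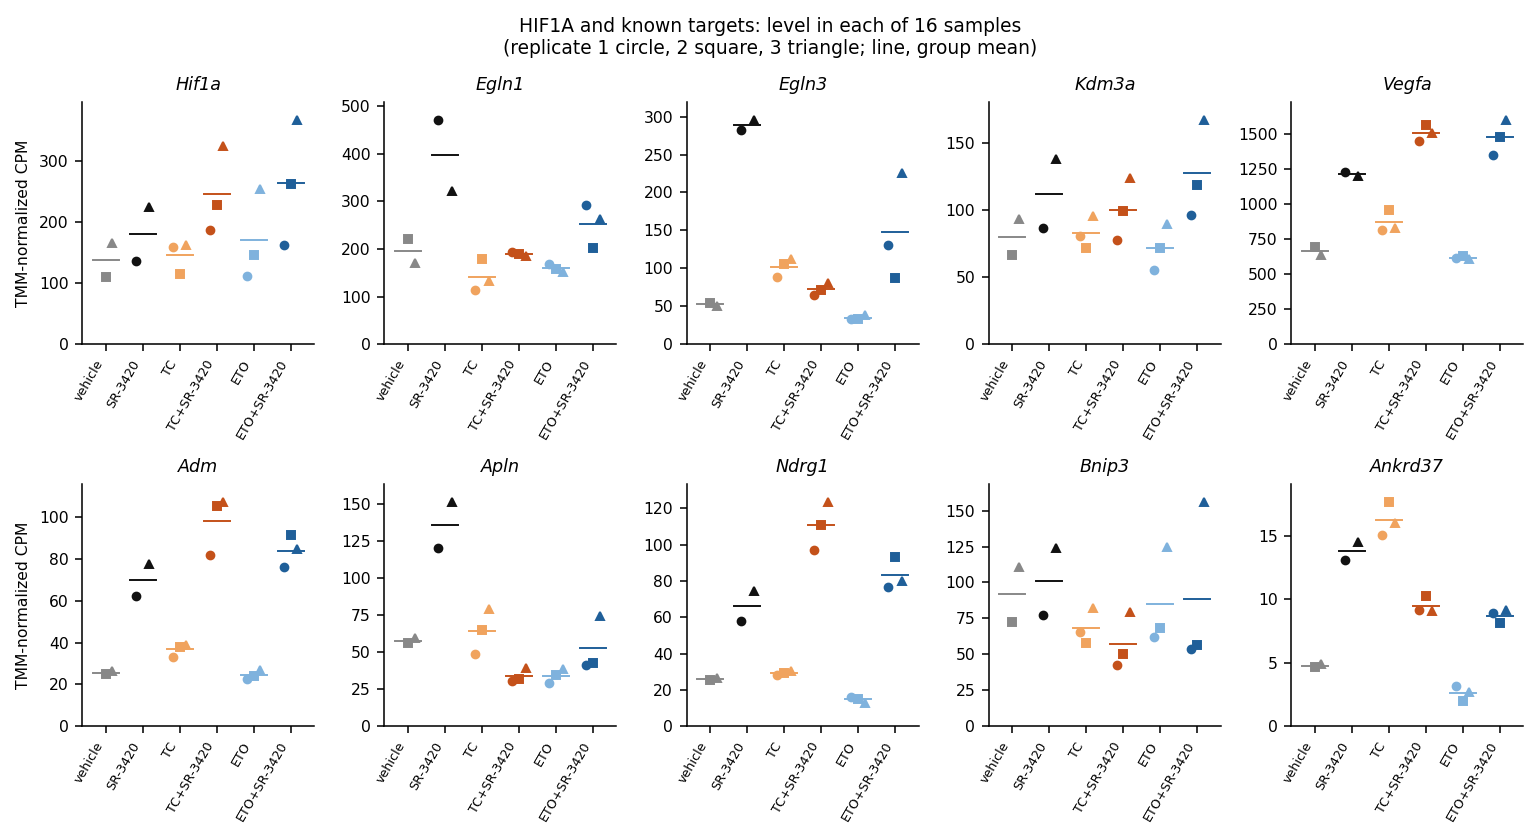
Level of each of the 10 members in the 16 samples, in TMM-normalized CPM on a linear axis from 0, by group (TC, triacsin C; ETO, etomoxir); points are samples, shaped by replicate number, and lines are group means. Egln3 and Apln were highest in the SR-3420 samples, Vegfa, Adm and Ndrg1 were high in all 3 SR-3420 groups, and Ankrd37 was highest in TC.

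The question of the first comparison is what activating lipolysis did to the HIF targets. With SR-3420, 7 of the 10 members were higher than in vehicle with no overlap between samples, as were 22.8% of the 12786 genes tested, while 21.2% were lower with no overlap. At an adjusted p under 0.05, 4.75% of these genes were called higher and 2.79% lower. These are the values that chose the members, and nothing is read from the count. The difference was largest for Egln3, which encodes an oxygen-sensing hydroxylase, and next largest for Ankrd37, Adm and Ndrg1, and all 10 log2 fold changes were above 0, with a median of 1.13 against -0.0038 over all genes tested.

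Of the sensing genes, Egln3 (NM_028133, chr12:55279968-55304861 on mm9) stood at 54.8 and 50.5 CPM in vehicle samples 2 and 3 and at 282 and 296 CPM in SR-3420 samples 1 and 3. Both SR-3420 values lay far above both vehicle values, and the log2 fold change was 2.46 ± 0.32. Egln1 (NM_053207, chr8:127432487-127473154 on mm9), the main hydroxylase that marks HIF1A, stood at 220.4 and 171 CPM in vehicle and 471 and 321 CPM in SR-3420, a log2 fold change of 1.02 ± 0.24. The groups did not overlap, although the 2 SR-3420 values differed widely. Hif1a itself (NM_010431, chr12:75008854-75048517 on mm9) stood at 109.5 and 165 CPM in vehicle and 136 and 226 CPM in SR-3420. These values overlapped, and the log2 fold change of 0.40 ± 0.43 was smaller than its SE. Kdm3a (NM_001038695, chr6:71538964-71582911 on mm9), a histone demethylase, also overlapped, at 66.2 and 93.0 CPM in vehicle and 86.3 and 138 CPM in SR-3420, with a log2 fold change of 0.49 ± 0.32.

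The 3 secreted factors were all higher in both SR-3420 samples. Vegfa (NM_001287057, chr17:46153943-46169326 on mm9), the leading angiogenic growth factor, stood at 695 and 637 CPM in vehicle and 1231 and 1199.7 CPM in SR-3420, a log2 fold change of 0.87 ± 0.13. Adm (NM_009627, chr7:117771183-117773333 on mm9), which encodes the vasodilator peptide adrenomedullin, stood at 25.1 and 26.2 CPM and 62.2 and 77.7 CPM, a log2 fold change of 1.45 ± 0.17. For both genes the samples of a group lay close together and the groups lay well apart. Apln (NM_013912, chrX:45378323-45388029 on mm9), which encodes apelin, a peptide that acts on vessels through its own receptor, stood at 56.2 and 59.8 CPM in vehicle and 121 and 152 CPM in SR-3420, a log2 fold change of 1.23 ± 0.29. Its groups did not overlap either, and the 2 SR-3420 values lay further apart than those of vehicle.

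The 3 intracellular targets differed among themselves. Ndrg1 (NM_008681, chr15:66760880-66801203 on mm9), a stress-responsive gene of differentiation and vesicle traffic, stood at 25.5 and 26.8 CPM in vehicle and 57.8 and 74.5 CPM in SR-3420, a log2 fold change of 1.34 ± 0.17. Ankrd37 (NM_001039562, chr8:47082262-47085204 on mm9), an ankyrin-repeat gene used as a marker of HIF activity, stood at 4.68 and 4.89 CPM and 13.1 and 14.5 CPM, a log2 fold change of 1.53 ± 0.20. Neither gene overlapped between the groups. Ankrd37 is the lowest member, with 25 to 259 counts per sample, and lies over part of Ufsp2 on the other strand; whether counting used the strand is not given in the sources used here, so reads of the pair cannot be told apart. Bnip3 (NM_009760, chr7:146082519-146101189 on mm9), a mitophagy receptor of the outer mitochondrial membrane, stood at 72.7 and 111 CPM in vehicle and 77.6 and 124 CPM in SR-3420. These values overlapped, with a log2 fold change of 0.14 ± 0.50. Of the promoters shown, that of Bnip3 held the most motif matches, and nothing is read from this.

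Between genes, levels were compared per kilobase of counted length (RPKM). In vehicle, Vegfa was the most abundant member at 193 ± 11.8 RPKM (SD, n = 2), followed by Egln1 at 55.6 ± 9.85 and Bnip3 at 52.2 ± 15.3 RPKM, and Ankrd37 was the lowest at 5.59 ± 0.172 RPKM. In SR-3420, Vegfa was still first at 351 ± 6.35 RPKM (SD, n = 2), and Egln3 had moved from 19.7 ± 1.12 to 108 ± 3.79 RPKM, close to Egln1 at 113 ± 30.1 RPKM.

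**Figure D2:**
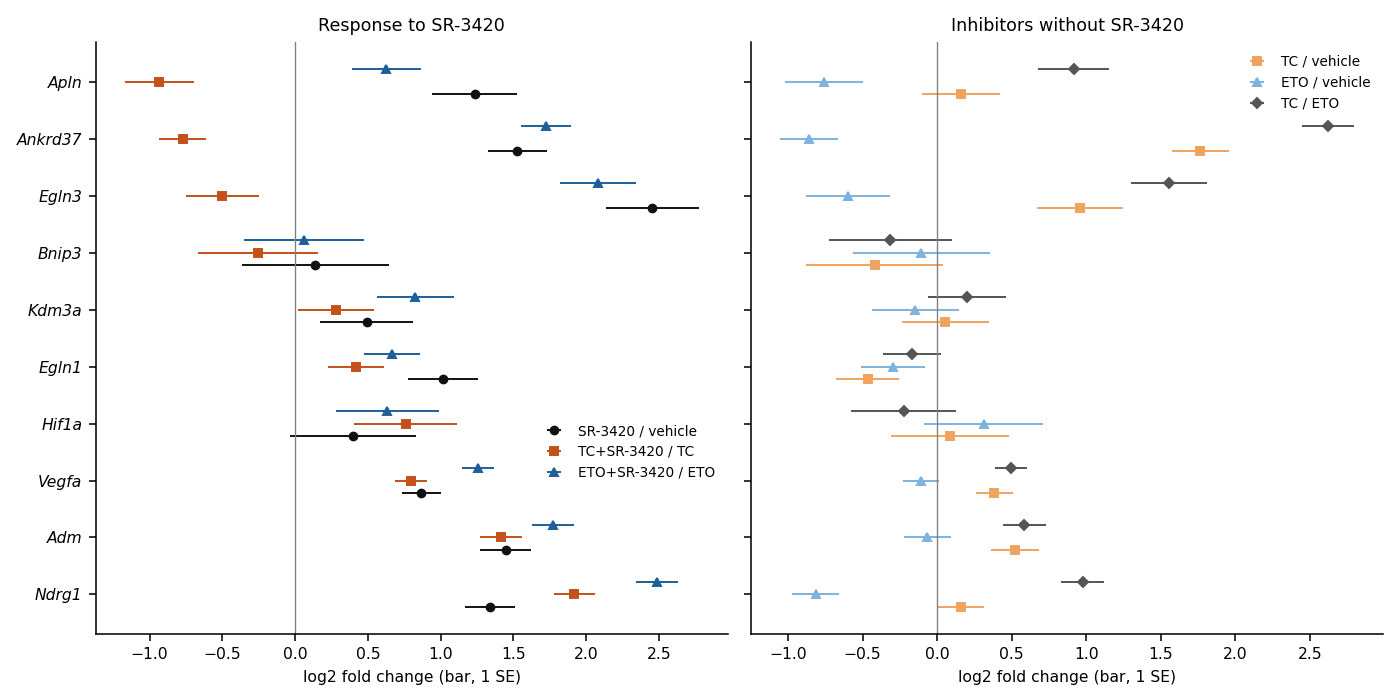
Log2 fold changes of the 10 members with bars of 1 SE, for SR-3420 with no inhibitor, with triacsin C (TC) and with etomoxir (ETO) on the left, and for the inhibitors without SR-3420 on the right. Egln3, Ankrd37 and Apln lay above 0 with SR-3420 alone and below 0 with triacsin C, while Ndrg1, Adm and Vegfa lay above 0 in all 3 responses; the comparisons of SR-3420 with vehicle and of TC+SR-3420 with TC chose the members.

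The second comparison describes the response to SR-3420 when triacsin C, which blocks fatty acid activation, was present. Whether the response needs fatty acid activation was not tested. With triacsin C the members split into those still higher with SR-3420 and those lower. Ndrg1, Adm, Vegfa, Hif1a and Egln1 were higher in every TC+SR-3420 sample than in any TC sample, Egln3, Ankrd37 and Apln were lower in every one, and Bnip3 and Kdm3a overlapped. Of the 12786 genes tested, 27.4% were higher and 28.5% lower with no overlap, and 17.3% were called higher and 19.7% lower, in this comparison, which also chose the members.

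Egln3 stood at 88.3, 106 and 112 CPM in TC samples 1, 2 and 3 and at 64.9, 71.8 and 80.1 CPM in TC+SR-3420 samples 1, 2 and 3. SR-3420 thus came with lower Egln3 values here, with a log2 fold change of -0.50 ± 0.25. Apln stood at 48.8, 65.4 and 79.6 CPM in TC and 30.3, 32.0 and 39.3 CPM in TC+SR-3420, with a log2 fold change of -0.93 ± 0.24. Its TC+SR-3420 values lay below the vehicle values as well. Ankrd37 stood at 15.1, 17.7 and 16.004 CPM in TC and 9.16, 10.3 and 9.10 CPM in TC+SR-3420, with a log2 fold change of -0.77 ± 0.16. For this gene TC alone was the highest of the 6 groups, so the lower TC+SR-3420 values still lay above those of vehicle.

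Adm, Vegfa and Ndrg1 behaved otherwise. Adm stood at 33.3, 37.8 and 39.1 CPM in TC and 81.8, 105 and 107 CPM in TC+SR-3420, a log2 fold change of 1.42 ± 0.14 next to 1.45 without the inhibitor. Vegfa stood at 817, 959 and 831 CPM and 1450.0, 1567 and 1506 CPM, a log2 fold change of 0.79 ± 0.11 next to 0.87. Ndrg1 stood at 28.2, 29.1 and 30.4 CPM and 97.1, 111 and 124 CPM, a log2 fold change of 1.92 ± 0.14 next to 1.34. All 3 genes were far apart between the groups, and Ndrg1 reached its highest level of any group in TC+SR-3420. Hif1a stood at 159, 116 and 163 CPM in TC and 187, 228 and 326 CPM in TC+SR-3420, a log2 fold change of 0.76 ± 0.35. Egln1 stood at 114, 179 and 132 CPM and 193, 190.2 and 184 CPM, a log2 fold change of 0.42 ± 0.19, with 1 TC value close below the TC+SR-3420 values. Log2 fold changes of Kdm3a and Bnip3 were 0.28 ± 0.26 and -0.26 ± 0.41, with overlapping groups.

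The difference between the response with triacsin C and the response without it was taken directly in the same model. It was -2.96 ± 0.40 on the log2 scale for Egln3, -2.30 ± 0.26 for Ankrd37 and -2.17 ± 0.37 for Apln, and -0.60 ± 0.30 for Egln1. For Adm and Vegfa it was -0.03 ± 0.22 and -0.07 ± 0.17, each smaller than its SE, and for Ndrg1 it was above 0 at 0.58 ± 0.22. Among all genes tested, 1.24% were called with a difference above 0 and 1.27% below 0. These values chose the members, and nothing is read from them.

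Etomoxir acts after fatty acid activation, and the samples with etomoxir were not used to choose the members, so the response to SR-3420 within them was tested. It called 7 of the 10 members higher and 0 lower by edgeR's quasi-likelihood test (Benjamini-Hochberg adjusted p under 0.05), where 12.5% of all genes tested were called higher and 12.8% lower. At an unadjusted p under 0.05, 8 members were higher and 0 lower, among 4758 of the 12786 genes in either direction, and DESeq2's Wald test also called 8 higher and 0 lower, among 1884 genes higher and 1984 lower. Over all alternatives the count of higher members ran from 5, with a model of only the groups compared or without ETO replicate 2 or ETO+SR-3420 replicate 3, to 9. All 10 log2 fold changes were above 0, with a median of 1.04 against 0.0094 over all genes tested. The 7 were Ndrg1, Egln3, Adm, Ankrd37, Vegfa, Kdm3a and Egln1. Of all genes tested, 15.8% were higher and 16.5% lower in ETO+SR-3420 than in ETO with no overlap.

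Ndrg1 stood at 16.3, 15.2 and 13.1 CPM in ETO samples 1, 2 and 3 and at 76.7, 93.5 and 80.1 CPM in ETO+SR-3420 samples 1, 2 and 3. It rose by a log2 fold change of 2.49 ± 0.15, with an adjusted p of 3.47e-07 (edgeR, Benjamini-Hochberg). Egln3 stood at 33.4, 32.7 and 38.3 CPM in ETO and 130.2, 87.1 and 225 CPM in ETO+SR-3420. Every ETO+SR-3420 value was above every ETO value, but the 3 values were spread widely, with sample 2 lowest and sample 3 highest. Egln3 rose by 2.08 ± 0.26 on the log2 scale (edgeR, Benjamini-Hochberg adjusted p = 0.00012). Ankrd37 stood at 3.16, 1.97 and 2.73 CPM and 8.95, 8.11 and 9.13 CPM, and rose by 1.73 ± 0.17 (edgeR, Benjamini-Hochberg adjusted p = 2.3e-05), with no overlap.

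Of the secreted factors, Adm stood at 22.6, 24.0 and 26.9 CPM in ETO and 75.9, 91.2 and 84.5 CPM in ETO+SR-3420 and rose by 1.78 ± 0.14 on the log2 scale (edgeR, Benjamini-Hochberg adjusted p = 3.83e-06). Vegfa stood at 617, 628 and 606 CPM and 1349, 1478 and 1602 CPM and rose by 1.26 ± 0.11 (edgeR, Benjamini-Hochberg adjusted p = 7.34e-06). Both had tight groups that lay far apart. Apln stood at 29.4, 34.7 and 38.8 CPM and 41.5, 42.7 and 74.8 CPM, with no overlap but with sample 3 well above the others. Its log2 fold change of 0.63 ± 0.24 did not pass the threshold (edgeR, Benjamini-Hochberg adjusted p = 0.0666). Apln passed without ETO+SR-3420 replicate 1 (adjusted p = 0.0368), in DESeq2's Wald test (adjusted p = 0.0486) and in edgeR with the replicate number as a block (adjusted p = 0.00226). Over all settings the adjusted p ran from 0.00226 to 0.311.

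Egln1 stood at 168, 158 and 152 CPM in ETO and 293, 202 and 263 CPM in ETO+SR-3420, with no overlap, and its log2 fold change was 0.67 ± 0.19 (edgeR, Benjamini-Hochberg adjusted p = 0.0228). Kdm3a stood at 54.9, 71.4 and 89.1 CPM and 96.5, 119 and 167 CPM, again with no overlap, and its log2 fold change was 0.83 ± 0.26 (edgeR, Benjamini-Hochberg adjusted p = 0.0344). Both calls depended on single samples and on other settings. Both ended in a model of only the groups compared (edgeR, Benjamini-Hochberg adjusted p = 0.0698 for Egln1 and 0.104 for Kdm3a). That of Kdm3a also ended with no filter on low counts (0.0542), and that of Egln1 without all samples numbered 3 (log2 fold change 0.62). In edgeR with Benjamini-Hochberg adjustment, the call of Egln1 ended without ETO replicate 2 (adjusted p = 0.0694), ETO replicate 3 (0.0554), ETO+SR-3420 replicate 1 (0.0744) or ETO+SR-3420 replicate 3 (0.0515), and that of Kdm3a without ETO replicate 1 (0.12), ETO replicate 2 (0.0921), ETO+SR-3420 replicate 2 (0.0694) or ETO+SR-3420 replicate 3 (0.13). Hif1a stood at 112, 146 and 254 CPM and 163, 262 and 368 CPM. Within each group its sample 1 was lowest and sample 3 highest, so the groups overlapped, and the log2 fold change of 0.63 ± 0.35 did not pass (edgeR, Benjamini-Hochberg adjusted p = 0.214); it did without ETO replicate 3 (0.0496), and over all settings the adjusted p ran from 0.00889 to 0.573. Bnip3 stood at 61.8, 68.7 and 125 CPM and 53.5, 56.7 and 156 CPM, with a log2 fold change of 0.06 ± 0.41 (edgeR, Benjamini-Hochberg adjusted p = 0.937) and values below 0 in some settings. Without all samples numbered 3, 6 members were called higher.

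Next to the responses without an inhibitor, the difference on the log2 scale with etomoxir was -0.37 ± 0.40 for Egln3, 0.20 ± 0.26 for Ankrd37 and -0.61 ± 0.37 for Apln, and 1.15 ± 0.22 for Ndrg1. The responses without an inhibitor chose the members, and these differences are given with no test. For Egln3, Ankrd37 and Apln the log2 fold changes therefore stood at 2.46, 1.53 and 1.23 without an inhibitor. With etomoxir they stood at 2.08, 1.73 and 0.63, and with triacsin C at -0.50, -0.77 and -0.93. In ETO+SR-3420 these genes lay below SR-3420 with no overlap, at -0.97 ± 0.27, -0.66 ± 0.17 and -1.36 ± 0.26 on the log2 scale. Egln1 was also lower, and Vegfa and Ndrg1 higher, with no overlap. Of all genes tested, 11.5% were lower and 6.82% higher with no overlap. In ETO, Egln3, Ankrd37 and Apln also lay below vehicle with no overlap. The SR-3420 and vehicle samples helped choose the members, so these values are a description.

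**Figure D3:**
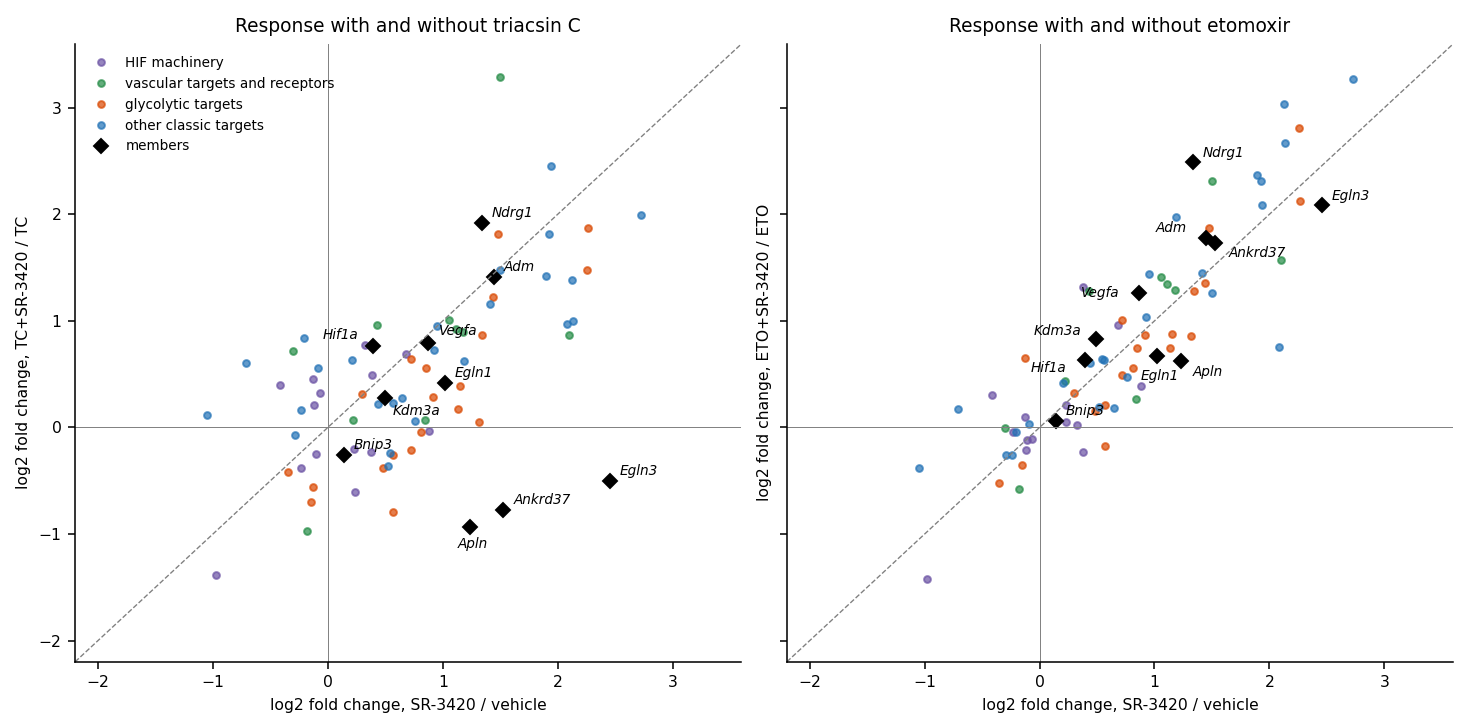
Log2 fold change of each member (black diamonds) and of the tested genes of 4 HIF pathway lists (coloured circles) with SR-3420 alone on the x axis and with SR-3420 in triacsin C (left) or etomoxir (right) on the y axis; the dashed line marks equal responses. With triacsin C, Egln3, Ankrd37 and Apln lay below 0 on the y axis, whereas with etomoxir all 10 members lay above it.

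The inhibitors were also compared without SR-3420. The vehicle and TC samples took part in choosing the members, in a way that favours low vehicle and high TC values, so the members' differences between TC and either vehicle or ETO are a description. Ankrd37, at 15.1, 17.7 and 16.004 CPM in TC and 4.68 and 4.89 CPM in vehicle, had a log2 fold change of 1.76 ± 0.19. Its TC values lay above those of SR-3420 as well. Egln3 was at 0.96 ± 0.29, Adm at 0.52 ± 0.16, Vegfa at 0.38 ± 0.12 and Ndrg1 at 0.16 ± 0.16, each with all TC values above both vehicle values. Of all genes tested, 24.4% were higher and 18.9% lower in TC with no overlap. Apln overlapped at 0.16 ± 0.26, and Egln1 overlapped at -0.47 ± 0.21. An adjusted p under 0.05 in edgeR was reached by 2 of the 10 members (higher) and 0 lower, where 4.77% of all genes were called higher and 6.94% lower, and by 1 without any 1 of the 5 samples; nothing is read from these counts.

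The ETO samples did not enter the choice, but the vehicle samples did, so the members' differences between ETO and vehicle are a description too. Of the log2 fold changes, 9 of 10 were below 0, with a median of -0.22 against 0.0081 over all genes tested. The lowest were those of Ndrg1 at -0.82 ± 0.16, Ankrd37 at -0.86 ± 0.19 and Apln at -0.76 ± 0.26. Ndrg1 values were 16.3, 15.2 and 13.1 CPM in ETO against 25.5 and 26.8 CPM in vehicle, with no overlap. Of all genes tested, 5.19% were lower and 4.54% higher in ETO with no overlap. An adjusted p under 0.05 in edgeR's quasi-likelihood test (Benjamini-Hochberg) was reached by 0 of the 10 members in either direction, where 0.0156% of all genes were called higher and 0.00782% lower (2 genes and 1 gene). At an unadjusted p under 0.05 there were 3 members lower and 0 higher, among 283 of the 12786 genes, and DESeq2's Wald test called 1 member lower, among 7 genes higher and 10 lower; nothing is read from these counts.

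Between triacsin C and etomoxir, Ankrd37 had the largest difference of the members, at 2.62 ± 0.18 on the log2 scale, followed by Egln3 at 1.56 ± 0.26 and Ndrg1 at 0.98 ± 0.14. Each of these was higher in all 3 TC samples than in any ETO sample, and so were Apln at 0.92 ± 0.24, Adm at 0.59 ± 0.14 and Vegfa at 0.49 ± 0.11. Of all genes tested, 20.7% were higher and 16.1% lower in TC than in ETO with no overlap. The choice of the members favours high TC values here too. In edgeR, 6 of the 10 members reached an adjusted p under 0.05 (higher) and 0 lower, where 8.08% of all genes were called higher and 8.8% lower, and nothing is read from this count.

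Over the 6 groups, the order of the mean levels differed between members. Egln3 was lowest in ETO (34.8 ± 3.03 CPM, n = 3), followed by vehicle, TC+SR-3420, TC, ETO+SR-3420 and SR-3420 (289 ± 10.2 CPM, n = 2), and of these neighbours only TC and ETO+SR-3420 overlapped. Apln ran from TC+SR-3420 (33.9 ± 4.80 CPM, n = 3) through ETO, ETO+SR-3420, vehicle and TC to SR-3420 (136 ± 22.0 CPM, n = 2), which lay apart from all the rest. In both, SR-3420 alone was the highest group. Ndrg1 ran from ETO (14.9 ± 1.64 CPM, n = 3) through vehicle, TC, SR-3420 and ETO+SR-3420 to TC+SR-3420 (111 ± 13.3 CPM, n = 3), and no neighbours overlapped. Adm followed the same order, from ETO (24.5 ± 2.21 CPM, n = 3) to TC+SR-3420 (98.1 ± 14.1 CPM, n = 3), and overlapped between ETO and vehicle and among the 3 SR-3420 groups from neighbour to neighbour. Vegfa did so too, from 617 ± 10.8 CPM, n = 3 in ETO to 1508 ± 58.4 CPM, n = 3 in TC+SR-3420, with overlap only between the 2 highest groups. Ankrd37 ran from ETO (2.62 ± 0.601 CPM, n = 3) through vehicle, ETO+SR-3420, TC+SR-3420 and SR-3420 to TC (16.3 ± 1.35 CPM, n = 3), with overlap only between ETO+SR-3420 and TC+SR-3420. Hif1a, Kdm3a and Bnip3 overlapped between all neighbours, with Hif1a between 137 ± 39.3 CPM, n = 2 in vehicle and 264 ± 103 CPM, n = 3 in ETO+SR-3420. Egln1 ran from TC (142 ± 34.0 CPM, n = 3) to SR-3420 (396 ± 106 CPM, n = 2).

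Levels of the members were also compared with each other by Pearson's r of log2(CPM + 0.5) over the 16 samples, which share libraries, treatments and, in part, replicate numbers. The vehicle, SR-3420, TC and TC+SR-3420 samples among them chose the members, so the values of r in part restate that choice and are a description only. Vegfa, Adm and Ndrg1 had the highest values, with r of 0.98 for Vegfa and Adm, 0.97 for Adm and Ndrg1 and 0.97 for Vegfa and Ndrg1. The r of Egln3 was 0.80 with Apln and 0.77 with Ankrd37, and that of Hif1a with Kdm3a was 0.87. The r of Apln was 0.11 with Vegfa, 0.10 with Adm and 0.10 with Ndrg1. Bnip3 had the lowest values, down to -0.19 with Ndrg1. The genes outside the members with the highest r to the mean of the members' scaled values, over the 16 samples, were Ak4 (0.93), Bhlhe40 (0.92), Tbl2 (0.91), P4ha1 (0.89) and Plekha2 (0.88), of which Ak4, Bhlhe40 and P4ha1 are also on the list of other classic HIF targets below. Over the 6 group means in place of the samples, the first 10 genes shared 1, Tbl2, with the first 10 over the samples, and none of the 10 by group means is on the lists.

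**Figure D4:**
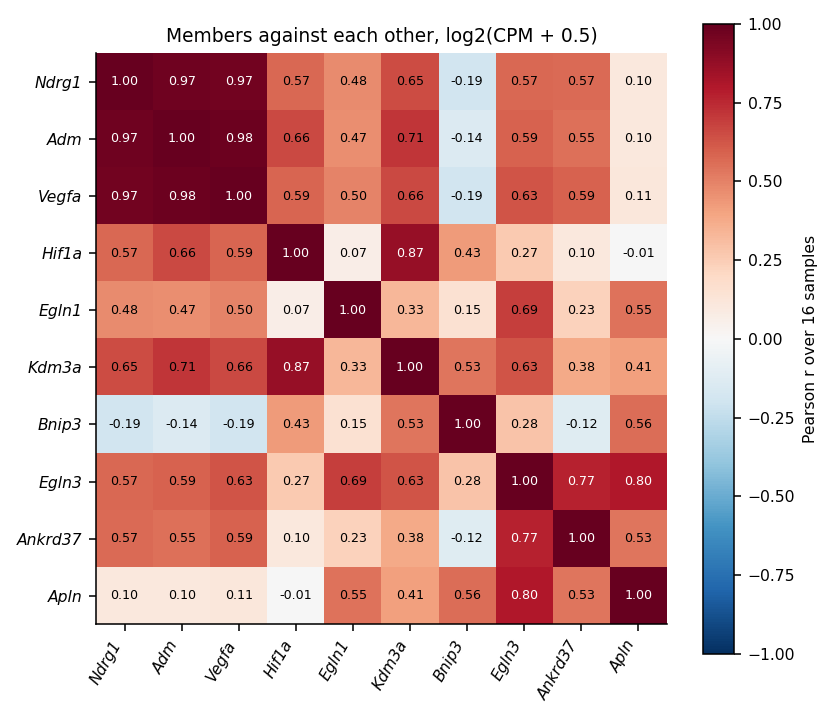
Pearson's r between the members over the 16 samples, on log2(CPM + 0.5), with values in the cells and colour from -1 (blue) to 1 (red); the samples without etomoxir chose the members. Ndrg1, Adm and Vegfa form the block of highest values in the upper left, and Egln3, Ankrd37 and Apln a looser block in the lower right.

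The rest of the pathway was read from 4 lists, the HIF machinery (14 genes), vascular targets and receptors (15), glycolytic targets (20) and other classic targets (25), of which 69 genes passed the filter on low counts; Edn1, Vegfc, Epo, Aplnr and Ramp3 did not. The receptors of apelin (Aplnr) and 1 of the adrenomedullin accessory proteins (Ramp3) were thus too low to test, while their ligands were counted well. SR-3420 against vehicle called 23 of the 69 genes higher and 1 lower by edgeR's quasi-likelihood test (Benjamini-Hochberg adjusted p under 0.05), where 4.75% and 2.79% of all genes were, with a median log2 fold change of 0.64 against -0.0038. By list these were 1 higher and 1 lower of 14 in the machinery, 3 of 10 vascular genes, 8 of 20 glycolytic genes and 11 of 25 other targets. The count fell to 13 higher without vehicle replicate 3, to 12 without all samples numbered 3 and to 5 in a model of only the 4 samples compared. The lists were chosen with earlier results of these data known. Their counts with SR-3420 alone or in triacsin C, and for the difference of these responses, are therefore no independent support.

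Of the subunits, Epas1, another HIF alpha subunit, moved against the targets. It stood at 172 and 134 CPM in vehicle and 88.1 and 66.9 CPM in SR-3420, at 94.3, 90.9 and 90.0 CPM in TC and 35.7, 37.4 and 32.6 CPM in TC+SR-3420, and at 146, 138 and 116 CPM in ETO and 56.5, 41.3 and 51.05 CPM in ETO+SR-3420. The SR-3420 samples were below their controls with no overlap in each of the 3 settings. It fell, with log2 fold changes of -0.98 ± 0.19, -1.38 ± 0.16 and -1.43 ± 0.16 (edgeR, Benjamini-Hochberg adjusted p = 0.00705, 2.95e-05 and 4.13e-05), and the first call ended without vehicle replicate 2 (adjusted p = 0.0794) or SR-3420 replicate 3 (0.071), without all samples numbered 3 (0.0767) and in a model of only the groups compared (0.179). Arnt, the constant partner, was not called by edgeR in the 3 responses to SR-3420, with log2 fold changes of -0.12 ± 0.12, 0.21 ± 0.10 and -0.21 ± 0.10 (edgeR, Benjamini-Hochberg adjusted p = 0.627, 0.127 and 0.152), but DESeq2's Wald test called it higher with SR-3420 in triacsin C (adjusted p = 0.045). It was lower with triacsin C alone than with vehicle, at -0.53 ± 0.11 and in all 3 TC samples (edgeR, Benjamini-Hochberg adjusted p = 0.00697), a call that ended without vehicle replicate 3 (0.0745) or all samples numbered 3 (0.0786). Vhl, which recognises hydroxylated HIF1A, fell only in the comparison of TC+SR-3420 with TC among these 3, with a log2 fold change of -0.60 ± 0.14 (edgeR, Benjamini-Hochberg adjusted p = 0.00492); that call ended without TC+SR-3420 replicate 2 (0.0541), and the difference from the response without triacsin C, -0.84 ± 0.23, was not called by edgeR (adjusted p = 0.0708) and was by DESeq2's Wald test (adjusted p = 0.0196).

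Among the targets, the lipid droplet gene Hilpda, whose product inhibits ATGL, stood at 13.6 and 10.9 CPM in vehicle and 90.1 and 72.2 CPM in SR-3420. It rose by 2.73 ± 0.20 with SR-3420 alone, by 2.00 ± 0.16 in triacsin C and by 3.27 ± 0.17 in etomoxir (edgeR, Benjamini-Hochberg adjusted p = 7.58e-06, 3.07e-06 and 1.58e-07), and in each case every SR-3420 sample was above every control. Slc2a1, the widespread glucose transporter, rose by 2.26 ± 0.31, 1.87 ± 0.25 and 2.13 ± 0.25 (edgeR, Benjamini-Hochberg adjusted p = 0.000815, 9.42e-05 and 8.18e-05). The lactate exporter Slc16a3 rose by 2.26 ± 0.29, 1.48 ± 0.23 and 2.81 ± 0.25 (edgeR, Benjamini-Hochberg adjusted p = 0.000633, 0.000306 and 7.66e-06), and neither of these transporters overlapped with its controls. Vegfa, Adm and Ndrg1 were also higher with SR-3420 in each setting, and Egln3, Ankrd37 and Apln were lower with it in triacsin C. The members' values without an inhibitor and with triacsin C chose them, so nothing is read from this likeness. Pgk1, a glycolytic enzyme, stood at 0.72 ± 0.22, 0.64 ± 0.18 and 1.01 ± 0.18 (edgeR, Benjamini-Hochberg adjusted p = 0.0699, 0.0137 and 0.00159); its first value passed without SR-3420 replicate 1 (0.0326) and in DESeq2's Wald test (0.0293), and its second did not without TC+SR-3420 replicate 3 (0.0654). Ldha, lactate dehydrogenase, stood at 0.91 ± 0.24, 0.28 ± 0.19 and 0.86 ± 0.19 (edgeR, Benjamini-Hochberg adjusted p = 0.0341, 0.274 and 0.00556), and its first call ended without vehicle replicate 3 (0.255), SR-3420 replicate 1 (0.176) or SR-3420 replicate 3 (0.0739), without all samples numbered 3 (0.146) and in a model of only the groups compared (0.235), as did its call with etomoxir in such a model (0.0515).

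**Figure D5:**
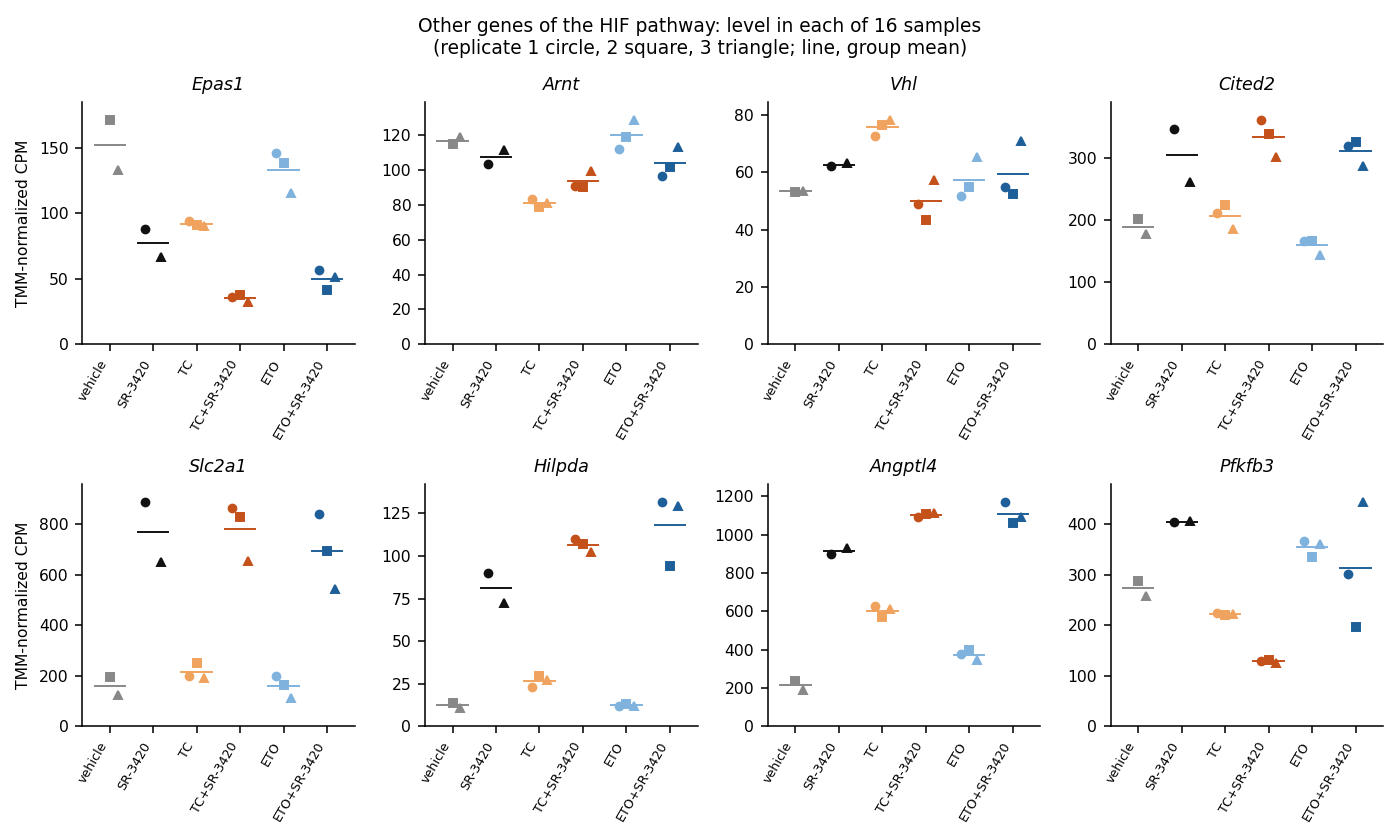
Level of 8 other genes of the HIF pathway in the 16 samples, in TMM-normalized CPM on a linear axis from 0, by group; points are samples, shaped by replicate number, and lines are group means. Epas1 was lower in each SR-3420 group than in its control, Slc2a1, Hilpda and Angptl4 were higher in each, and Pfkfb3 was lower in TC+SR-3420 than in TC.

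With triacsin C, SR-3420 called 30 of the 69 pathway genes higher and 5 lower by edgeR's quasi-likelihood test (Benjamini-Hochberg adjusted p under 0.05), where 17.3% and 19.7% of all genes were, with a median log2 fold change of 0.40 against 0.019 over all genes. With etomoxir it called 31 higher and 2 lower, where 12.5% and 12.8% of all genes were, with a median of 0.61 against 0.0094. In the vascular list, the adrenomedullin receptor gene Calcrl rose by 3.29 ± 0.65 with triacsin C (edgeR, Benjamini-Hochberg adjusted p = 0.00154), from 1.51, 1.71 and 1.97 CPM in TC to 9.28, 12.7 and 29.5 CPM in TC+SR-3420. Its values stayed low and were spread widely. It also rose with etomoxir, by 2.31 ± 0.61 (edgeR, Benjamini-Hochberg adjusted p = 0.0136), a call that ended without ETO replicate 1 (0.0534) or 2 (0.0593) and in a model of only the groups compared (0.0571). Pgf, a relative of Vegfa, rose by 1.01 ± 0.19 with triacsin C and 1.41 ± 0.19 with etomoxir (edgeR, Benjamini-Hochberg adjusted p = 0.00109 and 0.000204), and Vegfb fell by log2 fold changes of -0.97 ± 0.18 and -0.58 ± 0.18 (adjusted p = 0.000981 and 0.0298). The call of Vegfb with etomoxir ended without ETO replicate 1 (adjusted p = 0.0952), ETO replicate 2 (0.096) or ETO+SR-3420 replicate 2 (0.133) and in a model of only the groups compared (0.114). Triacsin C alone called 6 pathway genes higher and 6 lower than vehicle, where 4.77% and 6.94% of all genes were, and triacsin C against etomoxir called 14 higher and 8 lower, where 8.08% and 8.8% were. Etomoxir alone called 1 higher and 0 lower, where 0.0156% and 0.00782% of all genes were. The 1 gene with etomoxir was Hmox1, heme oxygenase, at 1.62 ± 0.16 (edgeR, Benjamini-Hochberg adjusted p = 0.00179), a call that ended without vehicle replicate 3 (0.0622), without all samples numbered 3 (0.63) and in a model of only the groups compared (0.307); at an unadjusted p under 0.05 etomoxir gave 283 of the 12786 genes, and DESeq2's Wald test called 2 pathway genes. Hmox1 was higher still with triacsin C, by 3.55 ± 0.18 against vehicle and 1.93 ± 0.14 against etomoxir (edgeR, Benjamini-Hochberg adjusted p = 2.43e-07 and 2.61e-06), and stood at 248 and 229 CPM in vehicle, 783, 729 and 683 CPM in ETO and 2727, 2889 and 2743 CPM in TC, with no overlap. Leaving out samples moved the counts of lower genes: with triacsin C alone to 2 without vehicle replicate 2, 1 without vehicle replicate 3 and 3 without TC replicate 2; with triacsin C against etomoxir to 2 without TC replicate 2, 4 without TC replicate 3 and 5 without TC replicate 1 or any 1 ETO replicate; with SR-3420 in triacsin C to 3 without TC+SR-3420 replicate 2; and with SR-3420 in etomoxir to 1 without ETO replicate 1, ETO replicate 2 or ETO+SR-3420 replicate 2 and to 4 without ETO+SR-3420 replicate 3. The part of the brown adipocyte markers, of which some were higher and some lower with SR-3420, and of the preadipocyte markers in these counts was not tested.

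The difference between the responses with triacsin C and without it was called for 4 of the 69 genes, all below 0, by edgeR's quasi-likelihood test (Benjamini-Hochberg adjusted p under 0.05), next to 1.24% and 1.27% of all genes. The count was 1 without vehicle replicate 3, 2 without vehicle replicate 2, SR-3420 replicate 1 or 3, TC replicate 3 or any 1 TC+SR-3420 replicate, and 0 without all samples numbered 3. DESeq2's Wald test called 2 genes above 0 and 6 below 0. Angptl4, a secreted lipoprotein lipase inhibitor, had a smaller response with triacsin C, with a difference of -1.23 ± 0.17 on the log2 scale (edgeR, Benjamini-Hochberg adjusted p = 0.00362). It stood at 236 and 192 CPM in vehicle, 901 and 929 CPM in SR-3420, 627, 569 and 615 CPM in TC and 1093, 1107 and 1114 CPM in TC+SR-3420. Angptl4 was higher in TC than in vehicle, and it rose further with SR-3420 in triacsin C, by 0.87 ± 0.11 (edgeR, Benjamini-Hochberg adjusted p = 6.18e-05). Without all samples numbered 3 the difference was -1.04 (adjusted p = 0.228 in edgeR). In that setting the adjusted p of the other 3 genes was 0.323 for Hmox1, 0.241 for Pfkfb3 and 0.314 for Pgam1. Hmox1 had a difference of -1.11 ± 0.22 (edgeR, Benjamini-Hochberg adjusted p = 0.0167) from a TC level far above that of vehicle, and it rose with SR-3420 both alone, by 2.08 ± 0.17, and in triacsin C, by 0.97 ± 0.14 (adjusted p = 1.86e-05 and 0.00014). The call of that difference also ended without vehicle replicate 2 (adjusted p = 0.0534), vehicle replicate 3 (0.116) or SR-3420 replicate 3 (0.0613). Pfkfb3, which makes an activator of the glycolytic enzyme phosphofructokinase, fell with SR-3420 in triacsin C, with a log2 fold change of -0.79 ± 0.21 (edgeR, Benjamini-Hochberg adjusted p = 0.00888), and was not called with SR-3420 alone, at 0.57 ± 0.25, or in etomoxir, at -0.17 ± 0.21 with overlapping groups (adjusted p = 0.203 and 0.586). Pdk1, a kinase that inhibits pyruvate dehydrogenase, also fell with SR-3420 in triacsin C, by -0.70 ± 0.22 (edgeR, Benjamini-Hochberg adjusted p = 0.0224), a call that ended without TC replicate 2 (0.0661) or 3 (0.0756), without TC+SR-3420 replicate 1 (0.0852) or 2 (0.0827) and with no filter on low counts (0.0507), and its difference from the response without triacsin C was not called (adjusted p = 0.442).

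Counting limits bear on the members unevenly: the lowest count was 25, for Ankrd37 in an ETO sample, and every other member had at least 158 counts in each sample. The deposited counts keep 1 read per position and length, which caps the counts of short, highly expressed genes. Groups held 2 or 3 samples of a single cell line, 1 time and 1 dose of each compound, and no sample was taken at low oxygen. HIF protein, its binding to DNA and oxygen in the cultures were not measured, so levels of HIF targets are levels of RNA only, and other factors that act on the same genes cannot be told apart from HIF. Effects of triacsin C and etomoxir beyond their named targets were not tested.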

How the data were processed

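RNA-seq counts of 16 samples in 6 groups were analysed. The authors aligned reads to mm9 with STAR 2.4.2a, kept 1 read per position and length with HOMER and deposited counts per RefSeq gene; whether counting used the strand is not stated. Counts were filtered with filterByExpr, normalized by TMM and fitted with edgeR 4.0.16 in R 4.3.3 in 1 quasi-likelihood model of the 6 groups with no covariate, and comparisons and differences of responses were contrasts of that model. Benjamini-Hochberg adjustment was over the 12786 genes kept of 20295, and genes with an adjusted p under 0.05 are those called. CPM and RPKM used TMM-scaled totals and the counted length, and correlations used log2(CPM + 0.5). Totals per sample lay between 9452861 and 25670624.

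The members and lists were chosen with earlier results of these data known; the genes of the lists (HIF machinery, vascular targets and receptors, glycolytic targets, other classic targets, and brown adipocyte, preadipocyte, endothelial and macrophage markers) came from general knowledge. Genes of the lists are named by a rule: in each comparison and direction the 3 genes of each list with the largest log2 fold change in size among those called with a mean count of at least 50, and Epas1, Arnt, Vhl, Slc2a1, Ldha, Pgk1 and Hilpda in any case; of all genes outside the members, those of the lists included, the 5 whose levels correlate best with the mean of the members' scaled values. Promoters came from a RefSeq table on GRCm38.p6.

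Alternatives were size factors of DESeq2 1.42.0, its Wald test, no filter and a filter of at least 10 counts in every sample, a fit to the compared groups alone, a block for the replicate number, each sample left out in turn, motifs in the 250 bases before the start, and likeness over group means. A setting without replicate 3 in every group was added after seeing the data. The scripts were tested on simulated data. Python 3.11.15 and matplotlib 3.10.9 drew the figures. Vehicle replicate 1 and SR-3420 replicate 2 were not analysed here.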

Additional observations from a re-analysis of the deposited data

Results flagged for a closer look

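For 4 of the 69 tested genes of the HIF pathway lists, the response to SR-3420 with triacsin C differed from the response without it, by a test of the difference itself (an interaction in edgeR's quasi-likelihood model, with adjustment over all genes by Benjamini-Hochberg). The difference on the log2 scale, with triacsin C less without, was -1.23 for Angptl4, -1.11 for Hmox1, -1.36 for Pfkfb3 and -0.85 for Pgam1. Over all 12786 genes tested, 1.24% were called with a difference above 0 and 1.27% below 0. Hmox1 started from a mean of 2786.2 CPM in TC and 238.4 CPM in vehicle, and was at 5452.5 CPM in TC+SR-3420 and 1008.6 CPM in SR-3420, so it was higher with SR-3420 in both settings.

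Leaving out samples changed these calls in edgeR (Benjamini-Hochberg adjusted p). Without replicate 3 in every group, a setting chosen after seeing the data, none of the 4 was called (0.228 for Angptl4, 0.323 for Hmox1, 0.241 for Pfkfb3 and 0.314 for Pgam1). No single sample ended the call of Angptl4. That of Hmox1 ended without vehicle replicate 2 (0.0534), vehicle replicate 3 (0.116) or SR-3420 replicate 3 (0.0613). That of Pfkfb3 ended without any 1 of the 10 samples, with values from 0.0813 without TC replicate 1 to 0.226 without vehicle replicate 3. That of Pgam1 ended without vehicle replicate 3 (0.162), SR-3420 replicate 1 (0.125), TC replicate 3 (0.0662) or TC+SR-3420 replicate 1 (0.0593), 2 (0.0573) or 3 (0.0544). With all samples, the call of Pfkfb3 also ended with DESeq2's size factors (0.0535) and with no filter on low counts (0.0809), and that of Pgam1 with no filter (0.0904) and in a model of only the groups compared (0.0608). The lists were chosen with earlier results of these data known, so these calls are no independent support. The cause of the differences was not tested.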

How the results depend on the processing

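Of the tested member values, 236 of 260 kept their side of the threshold when samples were left out, 22 no longer passed and 2 newly passed; in other settings 222 of 240 kept it, 8 no longer passed and 10 newly passed, and none changed sign while called. Of 1356 pathway gene values, 1201 kept their side, 140 no longer passed and 15 newly passed. The member counts pool SR-3420 with etomoxir with triacsin C against vehicle, etomoxir against vehicle and triacsin C against etomoxir, from which nothing is read. Etomoxir against vehicle called 0 members with all samples, so none of its values could stop passing. The pooled counts are thus no measure of how stable the tested response is. With 1 sample left out, SR-3420 with etomoxir called 5 to 7 members higher. DESeq2's size factors moved the median of all genes by less than 0.1 on the log2 scale. The cause of the changes below was not tested.

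The choice of the members used both groups of triacsin C against vehicle, which called 2 members higher, and 1 with DESeq2's size factors, 4 with its Wald test, 1 with no filter and 4 with at least 10 counts in every sample. Etomoxir against vehicle, whose vehicle samples the choice used, called 0 members lower, and 1 with the Wald test. For the pathway lists it called 1 gene higher, and 2 with DESeq2's size factors, 2 with the Wald test and 0 with the compared groups alone. The difference of SR-3420 responses between triacsin C and none called 0 pathway genes above 0 and 4 below 0; the Wald test called 2 above 0, and 2 were below 0 with no filter. With the compared groups alone, SR-3420 against vehicle called 5 pathway genes higher and 0 lower instead of 23 and 1, and SR-3420 with etomoxir 1 lower instead of 2, with 5 members higher instead of 7.

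With 1 sample left out, SR-3420 against vehicle called 13 to 18 pathway genes higher and 0 to 1 lower. Triacsin C against vehicle called 1 member higher in each case, and 4 to 5 pathway genes higher and 1 to 4 lower. Etomoxir against vehicle called 0 to 1 pathway genes higher. The difference of responses called 1 to 4 lower. SR-3420 with triacsin C called 24 to 29 higher and 3 to 6 lower, SR-3420 with etomoxir 1 to 4 lower, and triacsin C against etomoxir 2 to 5 lower. Where 1 sample of a group remained, it was assumed to vary like the other groups. Without replicate 3 in every group, SR-3420 against vehicle called 12 pathway genes higher and 0 lower, triacsin C against vehicle 1 member higher, 2 pathway genes higher and 1 lower, etomoxir against vehicle 0 higher and the difference of responses 0 lower.

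Samples of different groups with the same replicate number resembled each other in part: deviations from the group means had a mean r of 0.46 over 35 such pairs and -0.23 over 71 others. Centring on the group means ties these values, and the samples of a group of 2 are mirror images of each other. The negative r of the others is therefore no separate sign of likeness, and no value for unlike samples was computed. The 15 pairs of samples numbered 3 lay between 0.55 and 0.85, while pairs numbered 1 or 2 went down to -0.32 and -0.28, and 11 of 16 samples correlated best with 1 of their own number. The labels do not say what a number stands for, so the samples were not paired. With the replicate number as a block, SR-3420 against vehicle called 2 pathway genes lower, SR-3420 with triacsin C 10 lower and SR-3420 with etomoxir 4 lower. In this fit SR-3420 with etomoxir called 9 members higher, with Hif1a (adjusted p = 0.00889) and Apln (0.00226) besides the 7. Vhl was called in the difference of responses (0.00922) and Arnt in SR-3420 with triacsin C (0.0479), and Pgk1 in SR-3420 against vehicle (0.00264). Triacsin C against vehicle called 4 members higher, 17 pathway genes higher and 10 lower, etomoxir against vehicle 2 higher, triacsin C against etomoxir 30 higher and 13 lower, and the difference of responses 7 above 0 and 13 below 0. Over all genes the block gave 1423 higher and 1015 lower for SR-3420 against vehicle, where 607 and 357 were called without it, 2897 and 2879 for SR-3420 with etomoxir (1597 and 1637), 1530 and 1542 for triacsin C against vehicle (610 and 887), 2827 and 2167 for triacsin C against etomoxir (1033 and 1125), 737 and 932 for the difference of responses (158 and 163), 4 and 2 for etomoxir against vehicle (2 and 1), and 3515 higher for SR-3420 with triacsin C (2208).

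Other counts over all genes also moved by more than 1.5 times. With the compared groups alone, SR-3420 against vehicle called 45 higher and 1 lower, and SR-3420 with etomoxir 620 and 585. For the difference of responses, 158 above and 163 below 0 became 445 and 387 with the Wald test and 88 and 75 with no filter. SR-3420 against vehicle called 699 lower with the Wald test and 210 with no filter, triacsin C against vehicle 384 higher with no filter, and triacsin C against etomoxir 564 higher with no filter and 502 with the compared groups alone. Etomoxir against vehicle called 7 and 10 with the Wald test, 0 and 0 with the compared groups alone, and 1 higher with at least 10 counts in every sample. In the 250 bases before the start alone, 38.6% of all promoters held ACGTG or GCGTG. Of the first 10 genes by likeness to the members, 1 was shared when 6 group means replaced the samples.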
